A study of Mus musculus with 8 samples.

Results

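The mitochondrial genome is transcribed as long RNAs from both of its strands, which are then cut into ribosomal RNAs, transfer RNAs and the mRNAs of respiratory chain subunits. The transfer RNAs lie between many of the other genes and are cut out of the long RNA. The strand called plus here carries nearly all mRNAs and both rRNAs, while the minus strand carries mt-Nd6 and some of the tRNAs. Every enzyme that copies, cuts, tails or degrades these RNAs is made from nuclear genes, as are most subunits of complexes I, III, IV and V, and the mitochondrial products have to be assembled with them.

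The gene table held 37 genes whose symbol starts with mt-, of 57132 in all, and these 37 are described here: 13 mRNAs, 2 rRNAs and 22 tRNAs. They were chosen by symbol and not by a measured value, though with earlier results of these data known. The 4 PDT and 4 PBS libraries came from KPC tumours, a mouse model of pancreatic cancer, carried under the skin. PDT is photodynamic therapy with Ce6@D4-EV and light, where Ce6 usually stands for chlorin e6, a photosensitiser that produces reactive oxygen under light. PBS tumours were the control, labelled with the saline buffer alone. No strain, sex, age or time from light to harvest is given in the labels. The labels call the tissue sorted without naming a gate. Keratins and other epithelial markers were present in every library, with a summed level of 3119 to 6250 CPM, the reads of a gene scaled to a common library size, in PDT and 3569 to 7313 CPM in PBS tumours.

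Libraries held 35742024 to 48804713 reads assigned to genes. A count of 0 therefore allows a level of up to 0.0665 to 0.0872 CPM in a library (3 reads, counting error only, each read taken as independent). Ribosomal RNA had been removed from the samples before library construction, so the levels of the 2 mitochondrial rRNAs are what that step left. In PDT libraries mitochondrial genes took 1.68%, 2.14%, 2.27% and 1.56% of reads, and in PBS libraries 2.42%, 3.14%, 2.26% and 2.64%. The groups overlapped, PDT 3 lying just above PBS 3. In bulk samples such as these, fewer cells of a type and less RNA per cell cannot be told apart. Macrophage markers had a summed level of 4950 to 6649 CPM in PDT and 2101 to 4100 CPM in PBS tumours. All 10 were higher in PDT, 7 of them at an unadjusted p under 0.05 and 1, Cd68, at an adjusted p under 0.05 (background over all genes 8.63% and 0.163% higher), and none was at 0 in any library. All 10 skeletal muscle markers, from a tissue rich in mitochondria, were higher in PDT, 3 of them at an unadjusted p under 0.05, at a median of 1.62 on the log2 scale, with a summed level of 182 to 4049 CPM in PDT and 65.3 to 1647 CPM in PBS tumours. All 5 neutrophil markers tested were higher, 3 at an unadjusted p under 0.05, at a median of 1.30 on the log2 scale, with 116 to 395 CPM in PDT against 52.5 to 158 CPM in PBS tumours. All 5 erythroid markers were lower in PDT, 4 of them at an unadjusted p under 0.05 (7.87% of all genes were lower), with a summed level of 591 to 1353 CPM against 808 to 4437 CPM in PBS. The part of these cell types in the mitochondrial values was not tested.

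Of the 37 genes, 22 had at least 1 read and 16 had enough reads to be tested. In PDT tumours 14 of the 16 were lower and both rRNAs were higher. None of the 16 had an adjusted p under 0.05 (edgeR's quasi-likelihood test, Benjamini-Hochberg adjustment over 16588 genes), and 0.0723% of all genes were called lower. At an unadjusted p under 0.05, 8 members were lower and none higher, against 7.87% of all genes lower. In 7 members every PDT library lay below every PBS library, a pattern 5.12% of all genes had. DESeq2 gave 14 members an adjusted p and called 6 of them lower (mt-Nd2, mt-Co1, mt-Atp6, mt-Nd4, mt-Nd5 and mt-Nd6). Over the 12709 genes to which it gave an adjusted p, 2.79% were called lower. Among the members limma-voom called mt-Nd6 lower, with 0.404% of the 16588 genes called lower. The median log2 fold change was -0.59 over the 13 mRNAs less mt-Atp8, which was too low to test, and -0.002 over all genes tested.

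mt-Nd6, the subunit of complex I that is the only mRNA of the minus strand, had the smallest p among the members. Its level was 317, 366, 373 and 264 CPM in PDT tumours, against 685, 684, 600.0 and 454 CPM in PBS tumours. All 4 PDT libraries lay below all 4 PBS libraries. The log2 fold change was -0.87 ± 0.16 (SE, n = 4 each), and its adjusted p of 0.0515 in edgeR's test lay just outside the threshold. DESeq2 gave an adjusted p of 6.24e-05 and limma-voom 0.0400. Over 17 alternative settings the adjusted p ranged from 6.24e-05 to 0.176 and passed in 7.

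Complex I pumps protons while taking electrons from NADH, and 7 of the mitochondrial mRNAs encode its subunits. Their summed level was 5693, 7833, 7653 and 6068 CPM in PDT tumours and 9417, 11508, 8540 and 9637 CPM in PBS tumours, with no overlap. mt-Nd2, a subunit of the membrane arm, had 904, 1317, 1191 and 904 CPM in PDT tumours and 1792, 2311, 1428 and 1520 CPM in PBS tumours. Its groups did not overlap, and its log2 fold change was -0.71 ± 0.18 (SE; adjusted p = 0.101, edgeR). mt-Nd5, at the far end of the same arm, averaged 1233 ± 401 CPM in PDT and 2063 ± 304 CPM in PBS tumours (SD, n = 4 each). It had 795, 1517, 1624 and 997 CPM in PDT tumours, against 2037, 2485, 1965 and 1765 CPM in PBS tumours, so PDT 1 and PDT 4 were the lowest and the groups did not overlap. mt-Nd4 averaged 1223 ± 243 CPM in PDT and 1780 ± 294 CPM in PBS tumours (SD, n = 4 each), again with no overlap. The log2 fold changes of mt-Nd5 and mt-Nd4 were -0.74 ± 0.22 and -0.54 ± 0.17 (SE; adjusted p = 0.125 and 0.150, edgeR).

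mt-Nd1, the complex I subunit next to the rRNAs on the plus strand, was closer between the groups. It had 2742, 3204, 3039 and 2779 CPM in PDT tumours and 3246, 3891, 3092 and 4001 CPM in PBS tumours. PDT 2 lay above PBS 3, and the log2 fold change of -0.27 ± 0.13 (SE) had an adjusted p of 0.324 in edgeR's test. mt-Nd3 and mt-Nd4l were low and are described with the nuclear copies.

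mt-Cytb, cytochrome b, is the only mitochondrial subunit of complex III, which passes electrons on to cytochrome c. It had 2427, 3485, 3674 and 2734 CPM in PDT tumours and 3354, 4334, 3085 and 4309 CPM in PBS tumours. The groups overlapped, and the log2 fold change was -0.29 ± 0.17 (SE; adjusted p = 0.442, edgeR).

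mt-Co1, the catalytic subunit of complex IV that reduces oxygen, was the most abundant mitochondrial mRNA in every library. It had 7234, 8742, 9328 and 5855 CPM in PDT tumours and 9613, 13055, 9585 and 12159 CPM in PBS tumours. The highest PDT library lay just under the lowest PBS library, and the log2 fold change was -0.51 ± 0.17 (SE; adjusted p = 0.176, edgeR). It held 43.9 ± 3.03% of mitochondrial mRNA reads in PDT and 44.9 ± 1.51% in PBS tumours (SD, n = 4 each). mt-Co2 and mt-Co3, the other subunits of complex IV, and mt-Atp6 and mt-Atp8 of complex V, the ATP synthase, were low. They held little of this total, mt-Co2 and mt-Co3 at 0.0568% and 0.0644% on PDT means.

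**Figure D1:**
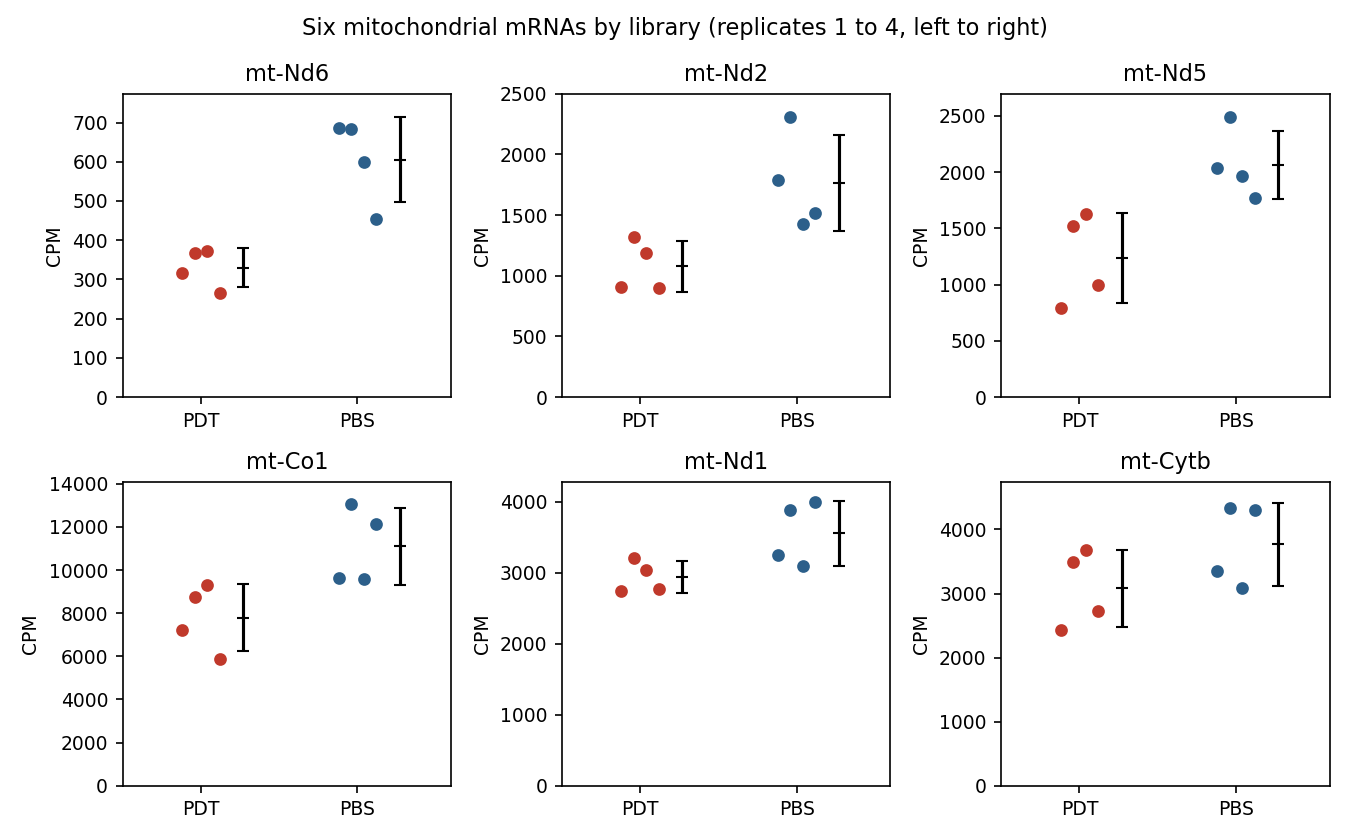
Level of the 6 mitochondrial mRNAs named above each panel, in CPM of the scaled library, with a point per library (PDT left, PBS right, replicates 1 to 4 from left to right) and the mean with SD beside them (n = 4 each). The groups do not overlap for mt-Nd6, mt-Nd2, mt-Nd5 and mt-Co1, and overlap for mt-Nd1 and mt-Cytb.

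Per kilobase of annotated length, the 13 mRNAs fell into 2 separate ranges. Levels per kilobase of 7 mRNAs were 636 to 5042 CPM in PDT and 1131 to 7187 CPM in PBS tumours on group means. In order these were mt-Co1, mt-Nd1, mt-Cytb, mt-Nd2, mt-Nd4, mt-Nd5 and mt-Nd6 in PDT tumours. In PDT tumours mt-Nd1 and mt-Cytb averaged 3073 ± 229 and 2692 ± 520.5 CPM per kilobase, and mt-Nd2 and mt-Nd4 1039 ± 201 and 887 ± 176 (SD, n = 4). These SDs are between libraries. Compared within a library, mt-Nd2 lay above mt-Nd4 in every PDT and PBS library, and mt-Nd1 above mt-Cytb in all but PDT 3. The order of mt-Nd5 and mt-Nd6 changed between libraries in both groups. They averaged 676 ± 219.6 and 636 ± 97.1 CPM per kilobase in PDT and 1131 ± 167 and 1167 ± 209.9 in PBS tumours (SD, n = 4 each). The other 6, mt-Co2, mt-Co3, mt-Nd3, mt-Atp6, mt-Nd4l and mt-Atp8, lay in 1 stretch of the plus strand between mt-Co1 and mt-Nd4. mt-Co2, mt-Atp6, mt-Co3, mt-Nd3 and mt-Nd4l had group means of 2.40 to 14.6 CPM per kilobase in PDT and 3.90 to 22.4 in PBS tumours. mt-Atp8 was the lowest, with 1, 4, 2 and 7 reads in PDT libraries and 2, 6, 0 and 3 reads in PBS libraries.

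**Figure D2:**
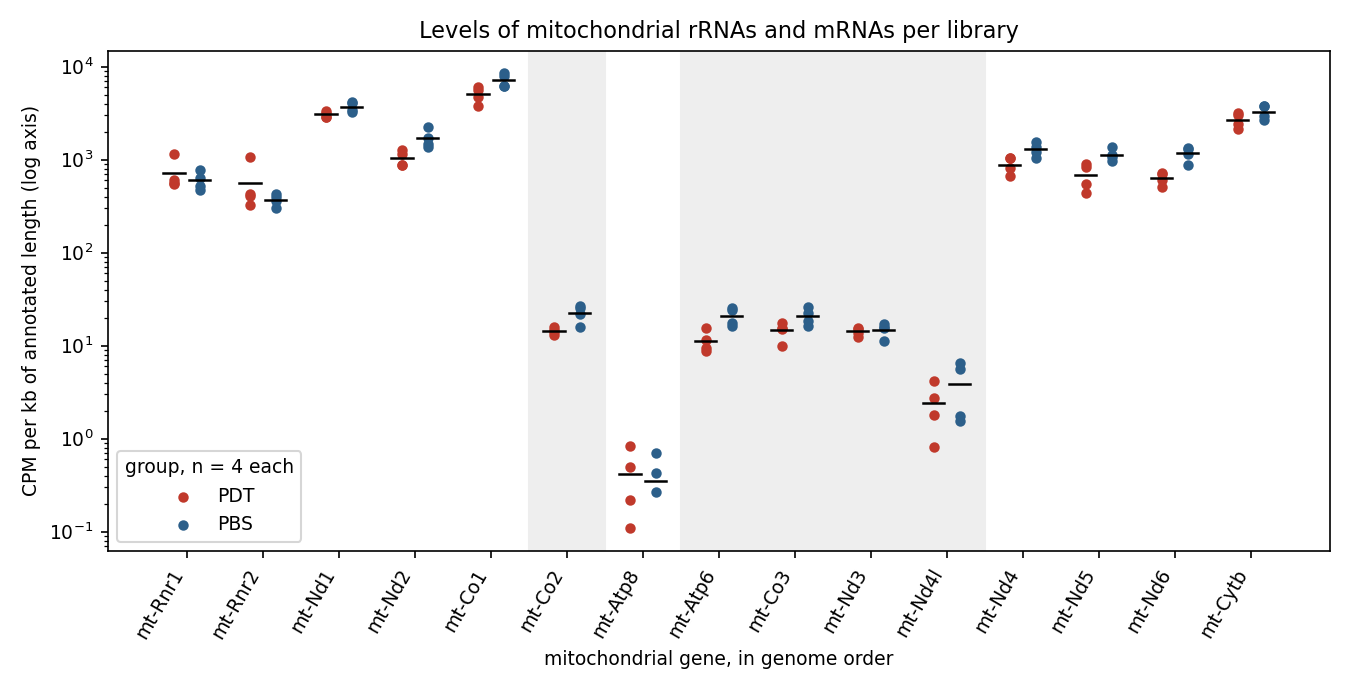
Level of the rRNAs and mRNAs in genome order, in CPM per kilobase of annotated length on a log axis, with a point per library (PDT left of PBS, n = 4 each, a library at 0 not drawn) and the group mean as a line. Grey columns mark the 5 mRNAs with a nuclear copy at 99% identity or more over at least 90% of their length, which sit at 2.40 to 22.4 on group means while mt-Nd4, copied over 63.6% of its length, is at 887 in PDT and 1292 in PBS tumours.

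The mouse nuclear genome carries copies of mitochondrial DNA, and a read from a stretch that is the same in both places has no single origin. Searched with BLAST among the GENCODE M21 transcripts, each of the 5 low mRNAs other than mt-Atp8 had a copy at 99% identity or more over all but 1 to 3 of its bases. Gm28661 equalled mt-Co2 over 681 bases, Atp6-ps (called Gm10925 in that release) equalled mt-Atp6 over 678, Gm28437 equalled mt-Co3 over 783 and Gm10222 equalled mt-Nd4l over 294. Gm28438 differed from mt-Nd3 at 1 of 345 bases. Gm28439 equalled the first 876 of the 1378 bases of mt-Nd4, and Gm29216 differed at 1 base from the last 483 of the 1545 bases of mt-Co1. The spacing of the copies on chromosome 1 was that of the mitochondrial genes, 140, 233, 2 and 69 bases between neighbours from Gm29216 to Gm28438, and 364 bases against 363 from there to Gm28439. The gap of 233 bases is where mt-Tk and mt-Atp8, apart from its 43 bases shared with mt-Atp6, lie in the mitochondrial genome. mt-Nd1, mt-Nd2, mt-Nd5, mt-Nd6, mt-Cytb and both rRNAs had no copy at 99% among these transcripts.

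The stretches that hold the single differences are shown to let the near identity be seen, with capitals for bases of a copy that differ from the mitochondrial gene. The first are bases 1 to 90 of mt-Nd3 and its copy, and the others bases 1063 to 1152 of mt-Co1 with its closest copy and with Gm13340, a copy of the whole of mt-Co1 with 37 differences.
mt-Nd3: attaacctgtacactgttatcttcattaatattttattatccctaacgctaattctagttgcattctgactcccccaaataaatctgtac
Gm28438: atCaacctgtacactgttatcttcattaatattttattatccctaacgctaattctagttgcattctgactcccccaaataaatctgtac
mt-Co1: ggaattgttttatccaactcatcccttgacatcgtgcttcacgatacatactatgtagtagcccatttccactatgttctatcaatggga
Gm29216: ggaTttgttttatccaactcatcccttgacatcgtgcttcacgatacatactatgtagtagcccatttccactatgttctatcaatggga
Gm13340: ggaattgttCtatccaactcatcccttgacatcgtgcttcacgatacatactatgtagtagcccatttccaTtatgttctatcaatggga

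The copies of mt-Co2, mt-Atp6 and mt-Co3 had read counts near those of the genes. mt-Co2 had 456, 426, 396 and 390 reads in PDT libraries and 556, 723, 413 and 623 in PBS libraries. Its copy Gm28661 had 668, 520, 481 and 661 reads in PDT libraries and 612, 723, 463 and 748 in PBS libraries. mt-Atp6, the proton channel of the ATP synthase, had 289, 411, 349 and 243 reads in PDT libraries and 603, 727, 425 and 414 in PBS libraries. Its copy Atp6-ps had 314, 378, 447 and 349 reads in PDT libraries and 692, 885, 534 and 460 in PBS libraries. Gene and copy both had fewer reads in every PDT library than in any PBS library. Gm28437 had 295 to 476 reads in PDT and 432 to 638 in PBS libraries, where mt-Co3 had 316 to 545 and 487 to 864. Gm29216, which differs from the last 483 bases of mt-Co1 at 1 base, had 112 to 218 reads in PDT and 188 to 252 in PBS libraries. The counts of mt-Co1, 239581 to 418282 and 353302 to 547592, are over all its 1545 bases. Of these, 1062 had no copy at 99%, so gene and copy are not compared over the same stretch. Gm13340 had 26 to 44 reads in PDT and 37 to 55 in PBS libraries. Gm28438 had 102, 92, 38 and 72 reads in PDT and 44, 109, 48 and 60 in PBS libraries, fewer in each library than mt-Nd3 with 238, 212, 195 and 195 in PDT and 201, 251, 149 and 184 in PBS libraries. Among the annotation's unprocessed pseudogenes, Gm28439 had 34 to 104 reads in PDT and 59 to 178 in PBS libraries. Gm10222 had 10 to 19 and 16 to 32. The remaining such pseudogenes with reads were 2 less similar copies. These were Gm13341 of mt-Co2 (4 to 36 and 2 to 39) and Gm13339 of mt-Nd2 (0 to 4 and 0 to 10). The labels do not say how reads with several equal places were counted, so the counts of mt-Co2, mt-Atp6, mt-Co3, mt-Nd3 and mt-Nd4l are uncertain. So are those of mt-Nd4 and mt-Co1 over the copied 63.6% and 31.3% of their length, with the levels and fold changes given above. mt-Atp8 had no copy at 99% over at least 50 aligned bases among the transcripts. It shares 43 bases with mt-Atp6 on the same strand, and Atp6-ps equals mt-Atp6 there. The rest of mt-Atp8 lies in a gap whose spacing is kept on chromosome 1 and which was not itself searched. The count of mt-Atp8 is therefore uncertain too. The same limit holds for shares of mitochondrial mRNA reads and for the ratios below. The part of the copies in these levels was not tested.

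With that limit, mt-Atp6 and mt-Co2 did not overlap between the groups. The log2 fold change of mt-Atp6 was -0.90 ± 0.24 (SE; adjusted p = 0.104, edgeR), and that of mt-Co2 was -0.64 ± 0.20 (SE; adjusted p = 0.141). mt-Co3 gave -0.52 ± 0.22 with overlapping groups (adjusted p = 0.268, edgeR). mt-Nd3 had 5.28, 5.40, 4.35 and 4.77 CPM in PDT and 5.47, 5.98, 3.92 and 5.35 CPM in PBS tumours, and its log2 fold change was -0.07 ± 0.26 (SE; adjusted p = 0.939, edgeR). mt-Nd4l, with 10 to 56 reads in PDT and 17 to 82 in PBS libraries, gave -0.70 ± 0.75 (SE; adjusted p = 0.716, edgeR).

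**Figure D3:**
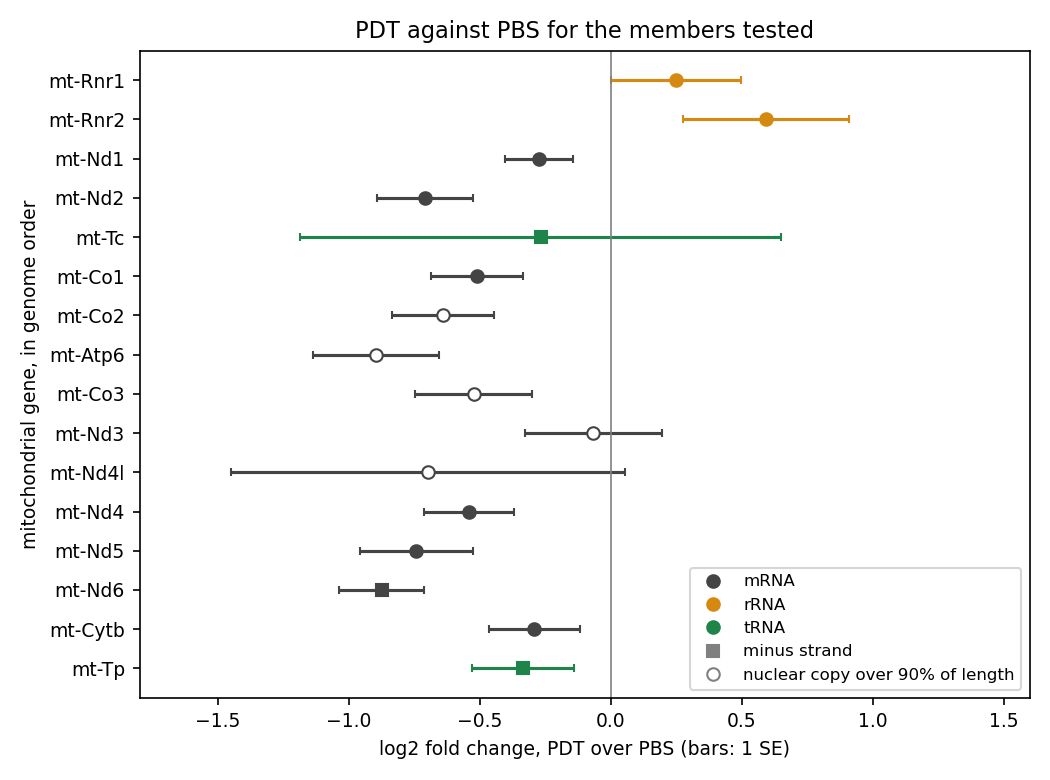
Log2 fold change, PDT over PBS, of the 16 members tested, in genome order, with bars of 1 SE (n = 4 libraries in each group). Colours give the RNA class, squares the minus strand and open symbols the mRNAs with a nuclear copy at 99% identity or more over at least 90% of their length; mt-Nd6 lies at -0.87 and mt-Rnr2 at 0.59.

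The 2 rRNAs form the small and large subunits of the mitochondrial ribosome. mt-Rnr1 had 1103, 535, 519 and 574 CPM in PDT tumours and 498, 601, 451 and 746 CPM in PBS tumours. mt-Rnr2 had 1692, 645, 515 and 678 CPM in PDT tumours and 575, 623, 474 and 669 CPM in PBS tumours. PDT 1 stood above all other libraries in both, while the other PDT libraries lay among the PBS libraries or, for mt-Rnr2 in PDT 4, 678 against 669 CPM, just above them. The log2 fold changes were 0.25 ± 0.25 and 0.59 ± 0.32 (SE; adjusted p = 0.683 and 0.388, edgeR), and without PDT 1 they were -0.07 and 0.08. The nuclear ribosomal RNA gene Rn18s-rs5 held 0.363%, 0.339%, 0.275% and 1.34% of reads in PDT and 0.241%, 0.341%, 0.251% and 0.546% in PBS libraries, so PDT 4 was highest there and PDT 1 was not. How far rRNA removal differed between libraries was not tested.

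Relative to mRNAs of the same genome, rRNA reads came to 18.2%, 5.87%, 4.996% and 8.53% in PDT libraries and 4.79%, 4.23%, 4.35% and 5.41% in PBS libraries. PDT 3 lay below PBS 4, so the groups overlapped. The log2 difference was 0.81 with a two-sided exact permutation p of 0.0571 (0.229 adjusted over 8 ratios), and without PDT 1 it was 0.43. With 4 libraries in each group the smallest p such a test can give is 0.0286. The share of mt-Rnr2 over mt-Rnr1 differed by 0.24 on the log2 scale (exact permutation p = 0.229, adjusted p = 0.305), and by 0.12 without PDT 1.

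Transfer RNAs had few reads apart from mt-Tp, the tRNA for proline. Of the 22, 15 had no read in any library, and mt-Tp held 5822 of the 6052 tRNA reads, 96.2%. It had 672, 742, 579 and 722 reads in PDT libraries and 753, 1071, 764 and 519 in PBS libraries, which overlap. In CPM its log2 fold change was -0.34 ± 0.19 (SE; adjusted p = 0.431, edgeR). mt-Tc, the tRNA for cysteine, had 16, 3, 14 and 10 reads in PDT and 3, 12, 16 and 14 in PBS libraries, with a log2 fold change of -0.27 ± 0.92 (SE; adjusted p = 0.928, edgeR). Ranges were wide at these counts: mt-Tn had 2 to 10 reads in PDT and 3 to 8 in PBS libraries, mt-Ty had 0 to 15 in PDT and 0 to 14 in PBS libraries, and mt-Te had 2 in each PDT library and 0 to 15 in PBS libraries.

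The detected tRNAs were on the minus strand, where 5 of 8 had reads, 6049 in all. On the plus strand 2 of 14 had any, mt-Tl1 with 2 reads in PDT 2 and mt-Tm, the one with fewest, with 1 read in PDT 4, and 6 libraries had none. The planned ratio of minus-strand to plus-strand tRNAs could therefore not be formed. The nearest gene on the same strand is 0 or 1 base away for plus-strand tRNAs and 1216 bases away for mt-Tp. Among minus-strand tRNAs, mt-Tq and mt-Ts1, 1175 and 1543 bases away, had no reads. mt-Te, 0 bases away, had 32 reads in all. mt-Tn, mt-Tc and mt-Ty, 2 bases away, had some, and mt-Ta, also 2 bases away, had none. The labels name no strand setting for the counting, so counts of minus-strand tRNAs could hold reads of the plus-strand RNA opposite them. The parts of spacing and of strand in these counts were not tested. mt-Ts1, mt-Td, mt-Tk, mt-Tg and mt-Tr, all without reads, lie in the gaps between genes copied on chromosome 1. Only annotated transcripts were searched for copies, so copies of these tRNAs there would not be seen. The minus-strand tRNAs with reads are shown with their anticodons in capitals, as the DNA form of the RNA, 5′ to 3′.
mt-Tp: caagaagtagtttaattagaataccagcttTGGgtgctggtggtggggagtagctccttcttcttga
mt-Tn: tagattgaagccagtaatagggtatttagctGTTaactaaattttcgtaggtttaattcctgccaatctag
mt-Tc: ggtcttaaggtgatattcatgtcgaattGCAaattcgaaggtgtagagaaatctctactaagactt
mt-Ty: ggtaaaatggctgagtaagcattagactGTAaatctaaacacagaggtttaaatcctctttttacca
mt-Te: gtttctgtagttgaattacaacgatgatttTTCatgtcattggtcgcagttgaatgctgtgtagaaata
They are 66 to 71 bases long. Mature tRNAs are short, folded and modified, and the labels give neither the read length nor the size selection of the libraries. Relative to mRNAs, tRNA reads differed by 0.16 on the log2 scale between PDT and PBS libraries (exact permutation p = 0.486, adjusted p = 0.555), by 0.009 without PBS 4 and by 0.33 without PDT 3.

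The strands were compared through mt-Nd6, whose reads came to 2.11%, 1.86%, 1.84% and 1.83% of those of the 12 plus-strand mRNAs in PDT libraries, and to 3.15%, 2.42%, 2.91% and 1.76% in PBS libraries. PBS 4 was the lowest library of all and the other PBS libraries were the highest 3. The log2 difference was -0.39 (exact permutation p = 0.143, adjusted p = 0.229), so a lower mt-Nd6 relative to the other strand did not pass. mt-Nd5 and mt-Nd6 overlap by 14 bases on opposite strands, and the labels name no strand setting for the counting. The rest of mt-Nd6 also lies opposite the long plus-strand RNA, so its counts could hold reads of that RNA. This was not tested. The summed level of the plus-strand mRNAs was 17380 ± 3069 CPM in PDT and 24089 ± 3531 CPM in PBS tumours (SD, n = 4 each), with 20311 CPM in the highest PDT and 20645 CPM in the lowest PBS library.

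The complexes were compared by ratios of their mRNA reads, in a design where a single ratio at the smallest p cannot pass after adjustment over 8. The complex IV sum was nearly all mt-Co1, at 7790 of 7811 CPM in PDT and 11103 of 11135 CPM in PBS tumours on group means. These are therefore close to ratios over mt-Co1. Complex III is mt-Cytb alone, and mt-Nd3 and mt-Nd4l added only 4.95 and 0.712 CPM to complex I on PDT means. Complex I mRNA reads came to 78.5%, 89.3%, 81.9% and 103% of those of complex IV in PDT libraries and to 97.6%, 87.9%, 88.9% and 79.0% in PBS libraries. The log2 difference was -0.006 (exact permutation p = 0.943, adjusted p = 0.943). For complex III it was 0.22 (exact permutation p = 0.0857, adjusted p = 0.229; 0.15 without PDT 4), from 33.4%, 39.7%, 39.3% and 46.5% in PDT and 34.8%, 33.1%, 32.1% and 35.3% in PBS libraries. Here 3 PDT libraries lay above all PBS libraries and PDT 1 among them. Complex V over complex IV differed by -0.38 (exact permutation p = 0.143, adjusted p = 0.229; -0.23 without PBS 1), a ratio that rests on mt-Atp6. As shares of mitochondrial mRNA reads, mt-Nd1 held 16.8 ± 1.89% in PDT and 14.4 ± 0.77% in PBS, and mt-Cytb 17.4 ± 1.19% and 15.2 ± 0.86%, whereas mt-Nd5 held 6.84 ± 1.2% in PDT and 8.42 ± 1.15% in PBS, and mt-Nd2 6.09 ± 0.35% and 7.13 ± 1.06% (SD, n = 4 each). Each of these shares overlapped between the groups.

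Nuclear genes for subunits of the same complexes were mostly higher in PDT tumours. Of 71 tested, 59 were higher, 32 of them at an unadjusted p under 0.05, where 8.63% of all genes were higher. None passed the adjusted threshold in edgeR's test, and their median log2 fold change was 0.30. DESeq2 called 17 of them higher, with 4.13% called higher over the 12709 genes to which it gave an adjusted p. Of the 71, limma-voom called Ndufa3 and Cox6b1 higher, with 0.603% of 16588 genes called higher. The smallest p of each complex belonged to Ndufa3 of complex I (log2 fold change 1.21 ± 0.24, SE, adjusted p = 0.0566), Uqcr11 of complex III (1.47 ± 0.40, 0.109), Cox6b1 of complex IV (0.84 ± 0.17, 0.0604) and Atp5po of complex V (0.72 ± 0.18, 0.0978). The summed level of the 71 was 14567, 12121, 11336 and 14573 CPM in PDT and 10743, 10111, 10685 and 12061 CPM in PBS tumours. The groups overlapped there, PDT 3 lying below PBS 4. Reads of mitochondrial mRNAs came to 106%, 166%, 182% and 101% of those of the nuclear subunits in PDT libraries, against 209%, 286%, 199% and 217% in PBS libraries. All PDT libraries lay below all PBS libraries. The log2 difference was -0.75 with an exact permutation p of 0.0286, the smallest the design can give, and 0.229 after adjustment over the 8 ratios.

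**Figure D4:**
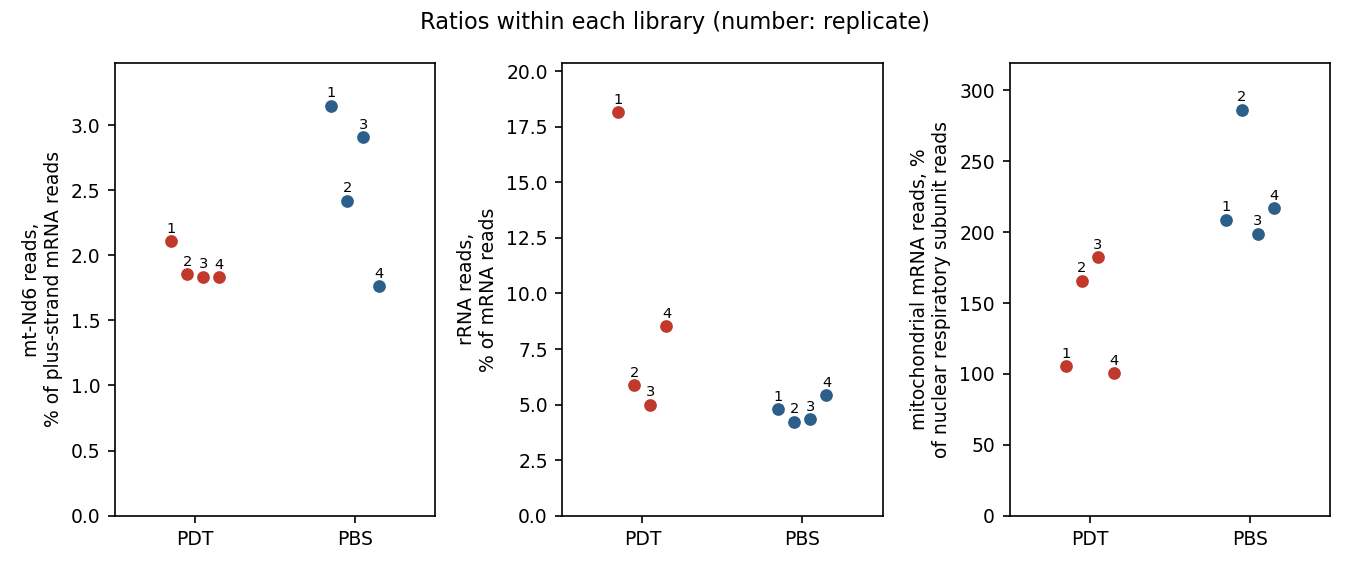
Ratios of reads within each library, in percent, with a point per library numbered by replicate (PDT left, PBS right). PDT 1 stands apart at 18.2% for rRNA over mRNA, PBS 4 lies lowest at 1.76% for mt-Nd6 over plus-strand mRNAs, and the groups do not overlap for mitochondrial mRNAs over nuclear respiratory subunits.

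Nuclear genes that copy, transcribe, process and maintain the mitochondrial genome and its RNAs showed no common direction. Of 61 tested, 31 were lower and 30 higher in PDT tumours, with 2 lower and 4 higher at an unadjusted p under 0.05, where 7.87% of all genes were lower and 8.63% higher, and none past the adjusted threshold in edgeR's test. DESeq2 called 1, Rexo2, and limma-voom none. Polrmt, the RNA polymerase of mitochondria, had 13.6, 14.5, 11.1 and 15.3 CPM in PDT and 14.5, 12.6, 13.4 and 13.8 CPM in PBS tumours, and a log2 fold change of 0.005 ± 0.17 (SE). Among its partners, Tfam, which packs the DNA and starts transcription, gave -0.12 ± 0.14 (SE; adjusted p = 0.726, edgeR). Tfb2m, which opens the promoter, gave -0.30 ± 0.19, and the elongation factor Tefm -0.03 ± 0.18 (SE; adjusted p = 0.483 and 0.956, edgeR). Elac2, which cuts the 3′ ends of tRNAs, gave -0.03 ± 0.13 (SE; adjusted p = 0.941, edgeR).

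Lrpprc and Mtpap, which act on the stability and tails of the mRNAs, were lower without passing. Lrpprc, an mRNA-binding protein of mitochondria, had 43.3, 44.8, 47.9 and 34.9 CPM in PDT and 48.5, 63.9, 47.7 and 59.6 CPM in PBS tumours, with a log2 fold change of -0.36 ± 0.15 (SE; adjusted p = 0.244, edgeR). Mtpap, the poly(A) polymerase, gave -0.37 ± 0.18 (SE; adjusted p = 0.334, edgeR). Slirp, the partner of Lrpprc, had 2 reads in PDT 3, 1 read in PBS 1 and 0 in the others and was not tested. Ppargc1a, a regulator of mitochondrial biogenesis, gave -1.43 ± 0.60 (SE; adjusted p = 0.257, edgeR) from 0.684 to 1.02 CPM in PDT and 0.599 to 3.53 CPM in PBS tumours. Rexo2, which degrades short RNAs in mitochondria, had the smallest p of the list, with 105, 98.5, 98.1 and 100.03 CPM in PDT and 75.2, 74.6, 66.9 and 82.6 CPM in PBS tumours. Its groups did not overlap, and its log2 fold change was 0.42 ± 0.11 (SE; adjusted p = 0.102, edgeR). Dguok, a kinase for DNA building blocks, gave 0.46 ± 0.15, the RNA-binding kinase-like gene Fastk 0.31 ± 0.12 and the topoisomerase Top1mt 0.51 ± 0.20 (SE; adjusted p = 0.158, 0.212 and 0.218, edgeR).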

How the data were processed

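Directional libraries of 8 tumour samples were made after removal of ribosomal RNA, per the labels. The authors deposited raw read counts per gene. Cutadapt 4.6, STAR 2.7.11b and the genome GRCm39 come from a list in the submitters' processing notes. No source used here names the counting tool, its strand setting or its handling of reads with several places. Between 77.9% and 83.8% of counts from 1 to 20 were even, as when both reads of a pair are counted. The floor of 3 reads does not allow for this and would then be too low.

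Counts were tested with R 4.3.3 and edgeR 4.0.16 (filterByExpr, TMM scaling, quasi-likelihood test, PDT minus PBS, no covariate), with Benjamini-Hochberg adjustment over 16588 genes and a threshold of 0.05. The biological coefficient of variation was 0.392, and the depth of 35742024 to 48804713 reads sets the floor of 3 reads. DESeq2 1.42.0 and limma 3.58.1 were alternatives. Standard errors were obtained as log2 fold change over square root of F. CPM uses TMM-scaled library sizes. Ratios of summed reads were tested by two-sided exact permutation over 70 assignments. Of 9 planned ratios 8 could be formed. Sequences, lengths and strands are from GENCODE M21, matched by gene identifier, and copies were searched with blastn 2.17.0 over at least 50 aligned bases. No coordinates are given, since that release is on another build.

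All 13 mRNAs, both rRNAs, the tested tRNAs and those with most and fewest reads were to be named. Of nuclear genes of mitochondrial gene expression, the rule named the 5 with the smallest p and Polrmt, Tfam, Tfb2m, Tefm, Lrpprc, Slirp, Mtpap, Elac2 and Ppargc1a. Of nuclear respiratory subunits it named the 1 with the smallest p in each complex, and of nuclear copies those with at least 10 reads in all, taken here as the unprocessed pseudogenes of the annotation. The members and lists were chosen with earlier results of these data known. The labels do not state separate mice for each sample, so p-values cover only the spread seen here, which may be technical. In chi-square tests of their counts the 28 pairs of libraries gave 62.1 to 191 per degree of freedom, so none was a copy of another. No batch or date is given in the labels.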

Additional observations from a re-analysis of the deposited data

Results flagged for a closer look

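Of 54 groups of 4 libraries examined for a value far from the others, 5 held one, where chance gives about 1 in 20. In PDT 1, mt-Rnr1 was at 1103 CPM while the other PDT libraries were at 519 to 574 CPM. In the same library mt-Rnr2 was at 1692 CPM (515 to 678 CPM in PDT 2, 3 and 4), and both rRNAs together took 0.258% of its reads, against 0.108% to 0.123%. PDT 1 also had a log2 ratio of mt-Nd6 to plus-strand mRNAs of -5.57, where the other PDT libraries were within -5.77 and -5.75. In PBS 4 the log2 ratio of tRNAs to mRNAs was -10.67, where the other PBS libraries were within -10.09 and -9.99.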

How the results depend on the processing

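Over all genes 39 passed the threshold, and 69 did with upper quartile scaling, 534 with no filter, 88 with a filter of 1 CPM in 4 samples, 879 with DESeq2, 167 with limma-voom with sample quality weights and 67 with counts divided by 2, and 0 to 122 with a library left out. Of the mitochondrial genes 0 passed, and 3 with no filter (mt-Nd2, mt-Nd5 and mt-Nd6), 6 with DESeq2 and 1, mt-Nd6, with the filter of 1 CPM, with limma-voom and with halved counts. With a library left out it was 0 to 1, the 1 being mt-Nd6 without PBS 4 (adjusted p = 0.0250, edgeR). The count of 8 members lower at an unadjusted p under 0.05 was 7 to 9 under every alternative, each library left out included. This count was added after seeing the data. So were ratios without mt-Atp8 and without mRNAs copied at 99% identity over at least 50% of their length, mt-Nd4 included. mt-Co1, copied over 31.3% of its length, was kept, so those ratios still hold copied stretches. Those ratios kept their direction, with adjusted p-values of 0.2 to 1, where 0.2 is the smallest that 1 ratio alone could reach. Complex V over complex IV could not be formed, since mt-Atp6 and mt-Atp8 were both left out. Replicate numbers share only a number: same-numbered libraries deviated together with r = 0.048, 0.110, 0.091 and 0.041, and no PDT library correlated best with its own number. With the replicate block 182 genes passed, 1 of them mitochondrial, mt-Nd6. Values with the opposite sign were mt-Nd3 at 0.0127 without PBS 2 (range with a library left out -0.177 to 0.0127), mt-Rnr1 at -0.0708 without PDT 1 (-0.0708 to 0.417), mt-Tc at 0.0386 without PDT 2 (-0.575 to 0.0386) and, with the mean of log2(reads + 1) in place of summed reads, complex I over complex IV at 0.0042 and complex V over complex IV at 0.207. Complex I over complex IV ranged from -0.0845 to 0.0480 with a library left out. The cause was not tested. For mt-Nd4l and the tRNAs other than mt-Tp the read counts limit what can be seen.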
